A study of Arabidopsis thaliana with 8 samples.

Results

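Extra thylakoid ascorbate peroxidase was examined in Arabidopsis thaliana plants that carry a working FLU gene. The rule took the 2 arrays titled as the overexpressor of this enzyme, line 14-2 in the Columbia (Col) background (tAPX), and the 2 arrays titled wild type Col (WT), which together are 4 of the 8 arrays in the series. The other 4 arrays belong to flu, an insertion mutant of FLU (SAIL_136_E05), and to flu carrying the same overexpressor (flu tAPX), again with 2 arrays each. RNA came from rosette leaves of 3-week-old, unbolted plants, grown on soil in continuous light and harvested 2 h into the light after 8 h of darkness, so every group shares the dark period and the return to light. The experiment was done 6 times with no fewer than 10 plants per line, and each Affymetrix ATH1 array received RNA pooled from 3 of the 6 runs. A p-value here therefore measures the spread between pools. The overexpressor is a single transgenic line, and the sources used here do not name the promoter that drives it.

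Ascorbate peroxidases reduce hydrogen peroxide to water with ascorbate as the electron donor. The thylakoid-bound form, TAPX, works beside photosystem I, where oxygen that takes electrons from the chain becomes superoxide and then hydrogen peroxide, and it completes the route called the water-water cycle. The oxidised ascorbate is returned by monodehydroascorbate reductases and by the glutathione-dependent branch. Plants that lack FLU build up the photosensitizer protochlorophyllide in the dark and release singlet oxygen when the light returns, whereas plants with FLU do not, and the comparison of tAPX with WT asks what the extra enzyme does on its own.

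The free-text descriptions of the samples go against their titles. Both WT arrays are described there as a wild type of another accession, Landsberg, tAPX replicate 1 as a flu mutant after 30 min of light and tAPX replicate 2 as a flu mutant after 60 min. Both flu arrays are called wild type there, with 60 min of light for replicate 1, and flu tAPX replicate 1 is also given 60 min. The lines used here are those on which the titles, the source names, the genotype field and the design text all agree. The titles name no light time, and the 2 h used here follows the design text. If the described times held instead, light time and line could not be told apart. STZ, a zinc-finger factor that was high on the arrays titled flu at 4779 and 5264, had signals of 171 and 160.3 in tAPX and 179.6 and 149 in WT, so at this gene both tAPX arrays were near WT.

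Signal is the MAS5 value of a probe set, the group of short oligonucleotides that reads 1 transcript. Of 22810 probe sets, 64 were controls and 14947 passed a filter on low signal. Among the tested probe sets 8140 had exactly 1 gene in the annotation used. Changes are differences of mean log2(signal + 16), tAPX minus WT, which understates the change of dim probe sets, and a ± after a log2 change is its standard error. The test was limma's moderated test fitted over all 8 arrays, two-sided, with Benjamini-Hochberg adjustment over the 14947 probe sets and a threshold of 0.05. Median signals over all probe sets were 166 and 163 on the WT arrays and 153 and 156 on the tAPX arrays. The mean log2 signal of the poly-A controls, which read bacterial transcripts, was 8.36 and 8.52 in WT and 8.26 and 8.24 in tAPX. The median change over all tested probe sets was -0.06. How far these offsets enter the small differences given here was not tested, and scaling on the poly-A controls moved that median to 0.13.

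Only TAPX passed the test, 1 of 14947 probe sets or 0.00669%, and it was higher in tAPX. Its signal was 2558 and 3115 in WT and 22959.7 and 22043 in tAPX. Means were 2836 ± 394 and 22501 ± 648 (SD, n = 2 each), a ratio of 7.93, and the groups stood far apart. The log2 change was 2.99 ± 0.15 (95% interval of this gene 2.65 to 3.32, limma adjusted p = 3.49e-05). Over 19 alternative settings it lay between 2.85 and 3.18 with an adjusted p between 4.42e-06 and 0.00724, and it was 2.96 without tAPX replicate 1 and 3.02 without tAPX replicate 2. The probe set cannot separate the plant's own transcript from that of the transgene.

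With the flu mutation TAPX reached almost the same level from a lower base. It was 1656 and 1729 in flu against 22703 and 23222 in flu tAPX, so the 4 transgenic arrays spanned 22043 to 23222. The change there was 3.75 (adjusted p = 3.8e-06). The difference between both changes, 0.76 ± 0.21, did not pass the test (adjusted p = 0.719).

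SAPX, the stromal relative of TAPX, had similar signals in both lines. Its signal was 2907 and 3028 in WT and 2725 and 2468 in tAPX, so both tAPX arrays lay below both WT arrays. The log2 change was -0.19 ± 0.18, with an interval of -0.59 to 0.20, and did not pass the test (adjusted p = 0.98). Non-overlap in that direction was common on these arrays: both tAPX arrays lay below both WT arrays at 26.7% of all tested probe sets and above them at 16.7%. The other members of the ascorbate peroxidase list were not analysed here.

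The genes that regenerate ascorbate had nearly the same signal in both lines. ATMDAR2, a monodehydroascorbate reductase, was 981 and 1373 in WT and 1017 and 1164 in tAPX. GR1, the cytosolic glutathione reductase, was 2931 and 3284 against 3078 and 2932. GR, the organellar glutathione reductase, was 3858 and 3349 against 3543 and 3469.9. The arrays of the lines overlapped at all 3 genes. Log2 changes ran from -0.09 to -0.04 with a median of -0.05, which turned positive under poly-A scaling and without WT replicate 2, and none of the 3 passed the test. The intervals together reached from -0.65 to 0.57, so a change of 2-fold lay outside the interval of each of these genes.

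Ascorbate synthesis was measured at 3 of its 6 listed genes, and none passed the test. GME, which makes GDP-L-galactose, was 6619 and 7372 in WT and 6506 and 7015 in tAPX. VTC4, the L-galactose-1-phosphate phosphatase, was 2139.8 and 2056 against 1939 and 1452. GLDH, which carries out the last step in the mitochondrion, was 630.5 and 486 against 489.9 and 417. At VTC4 both tAPX arrays lay below both WT arrays, with a log2 change of -0.32 ± 0.20, and at the other genes the arrays overlapped. The median change of the 3 was -0.28.

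**Figure D1:**
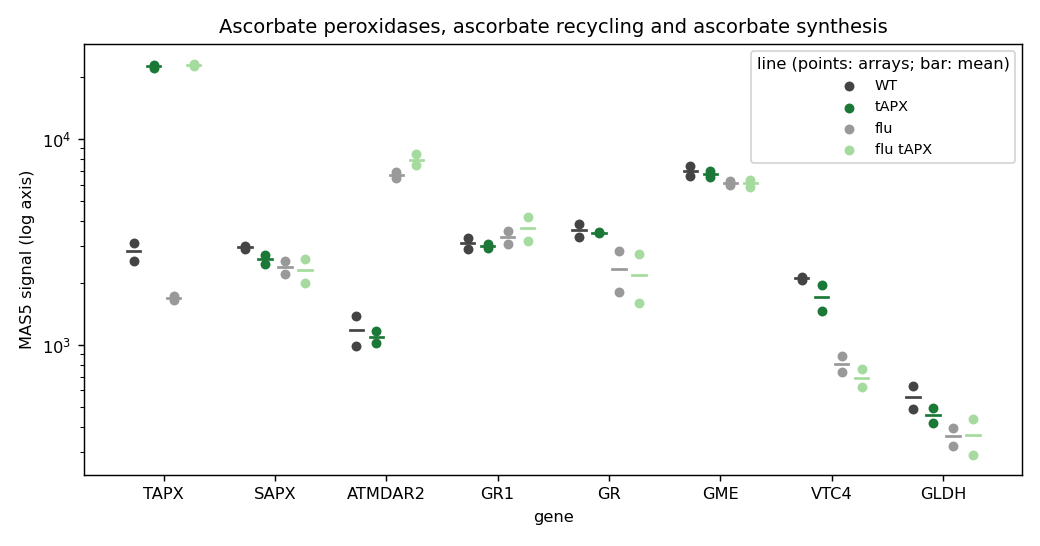
MAS5 signal on a log axis of 8 genes of the ascorbate peroxidase, recycling and synthesis lists, with 1 point per array and a bar at the mean of each line. TAPX is between 22043 and 23222 in both transgenic lines and between 1656 and 3115 in the others, while tAPX and WT lie close together at the remaining 7 genes.

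The thiol-based route to hydrogen peroxide was read at 5 of 16 listed genes for peroxiredoxins, glutathione peroxidases and their partners. The 5 were peroxiredoxins, NTRC and SRX, and none passed the test. The brightest, AT3G11630, was 13503 and 14124 in WT and 14457 and 13891 in tAPX. NTRC, the plastid thioredoxin reductase that supplies peroxiredoxins with electrons, was 3978 and 4280.5 against 4059 and 3512. Signals of PRXIIF, the mitochondrial peroxiredoxin, were 2663 and 2902 against 2735 and 2739. The arrays overlapped at these genes. AT3G52960 was 4553 and 4210 in WT and 4577 and 4725 in tAPX without overlap, a log2 change of 0.09 ± 0.16. SRX, sulfiredoxin, which repairs over-oxidised peroxiredoxin, was 1072 and 768 in WT and 1411 and 1468 in tAPX, so both tAPX arrays lay above both WT arrays. Its log2 change of 0.66 ± 0.39 had an interval of -0.20 to 1.52 and did not pass the test. In the flu background the SRX change was -0.54, with arrays that overlapped.

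Methionine sulfoxide reductases restore oxidised methionine in proteins, and 1 of 5 measured, MSRB5, was among the genes with the highest test statistics. MSRB5 was 1122 and 851 in WT and 1678 and 1849 in tAPX, so the groups did not overlap. The log2 change of 0.84 ± 0.24 had an adjusted p of 0.98. The other 4 ran from -0.26 at MSRB3 to 0.24 at MSRB6, and the family median was 0.07. MSRB9, which was 3544 and 4049 in flu, was 379.8 and 383 in WT and 313 and 322 in tAPX.

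Among 8 thioredoxins and thioredoxin reductases the median change was 0.16 and none passed the test. Both tAPX arrays lay above both WT arrays at 4 and below at none, beside 16.7% and 26.7% of all tested probe sets. The highest statistics belonged to ty2, at 3217 and 2676 in WT and 3439 and 3658 in tAPX, and to TRXF2, a plastid thioredoxin f, at 1515 and 1633 against 1855 and 1760.1. Their log2 changes were 0.27 ± 0.17 and 0.20 ± 0.16. In the flu background the family median was -0.31, with ty2 at 2160.2 and 1951 in flu against 1289.5 and 1060.1 in flu tAPX. This family, like the methionine sulfoxide reductases above and the plastid-encoded genes below, was formed after the data had been seen. All other lists and families, the defensins and ATG8 genes included, were also chosen with earlier results of these data known. Counts within them therefore carry no test.

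Genes entered as markers of hydrogen peroxide or singlet oxygen gave few readings. NDB2, an alternative NAD(P)H dehydrogenase of the mitochondrion, was 1191 and 1143 in WT and 1074 and 909.9 in tAPX, a log2 change of -0.24 ± 0.16. It was 6496 and 6419 in flu. The singlet oxygen list had 3 measured genes of 11. EX1, the chloroplast protein EXECUTER1 that relays the singlet oxygen signal, was 1076 and 1098 in WT and 1141 and 955 in tAPX, with overlap. AT5G64870 was 119 and 129 in WT, 64.4 and 109 in tAPX and 745 and 823 in flu. AT3G28580 was 65.1 and 55.9 in WT, 42.6 and 24.2 in tAPX and 197 and 203 in flu. At these latter genes both tAPX arrays lay below both WT arrays, with log2 changes of -0.48 ± 0.24 and -0.65 ± 0.34, and neither passed the test. The list's median of -0.48 became -0.18 without tAPX replicate 1.

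Chlorophyll and heme synthesis, the pathway that FLU restrains, was measured at 9 of 27 listed genes and none passed the test. GSA1, which makes 5-aminolevulinate, was 3115 and 2620.0 in WT and 3124 and 3718 in tAPX. HEMA2, the minor glutamyl-tRNA reductase, was 304 and 159.6 against 192 and 126. PORB, the light-dependent protochlorophyllide oxidoreductase, was 5401 and 5261 against 4686 and 5018. The arrays overlapped at HEMA2 only, with tAPX above WT at GSA1 and below it at PORB. Log2 changes over the 9 ran from -0.46 at HEMA2 to 0.25 at GSA1. Both tAPX arrays lay above both WT arrays at 2 genes and below at 3, beside 16.7% and 26.7% of all tested probe sets. The median of the 9 changes, -0.09, turned positive under poly-A scaling.

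Photosynthesis genes, which mark leaf mesophyll, were bright in both lines, with narrow intervals. RCA, Rubisco activase, was 31736 and 29217 in WT and 28989 and 30467 in tAPX, a log2 change of -0.04 ± 0.15 with an interval of -0.37 to 0.30. LHCB4.1, an antenna protein of photosystem II, was 24416 and 26498 against 24178 and 26184, with an interval of -0.44 to 0.41. LHCB4.2 was 22554 and 25302 against 24070.1 and 23936, with an interval of -0.33 to 0.35. The arrays overlapped at these genes, and LHCB4.3, the remaining one, was 3466 and 4047 in WT and 4322 and 4233 in tAPX without overlap. Of 69 plastid-encoded genes 68 were tested, and none passed the test or had an unadjusted p under 0.05. Their median change was 0.03, which turned negative under quantile normalization and when replicate 1 of either line was left out. Both tAPX arrays lay above both WT arrays at 13 of the 68 and below at 4, where the shares over all tested probe sets were 16.7% and 26.7%. The highest statistics were those of rps2, a ribosomal protein gene, at 3799.6 and 3339 against 4659.6 and 4475, and psaJ, a subunit of photosystem I, at 4627 and 5346 against 7531 and 5645. The lowest were those of rpoA, of the plastid RNA polymerase, at 11780.3 and 13708 against 12780.5 and 7631, and atpE, of the ATP synthase, at 28532 and 36236 against 29347 and 27596.

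**Figure D2:**
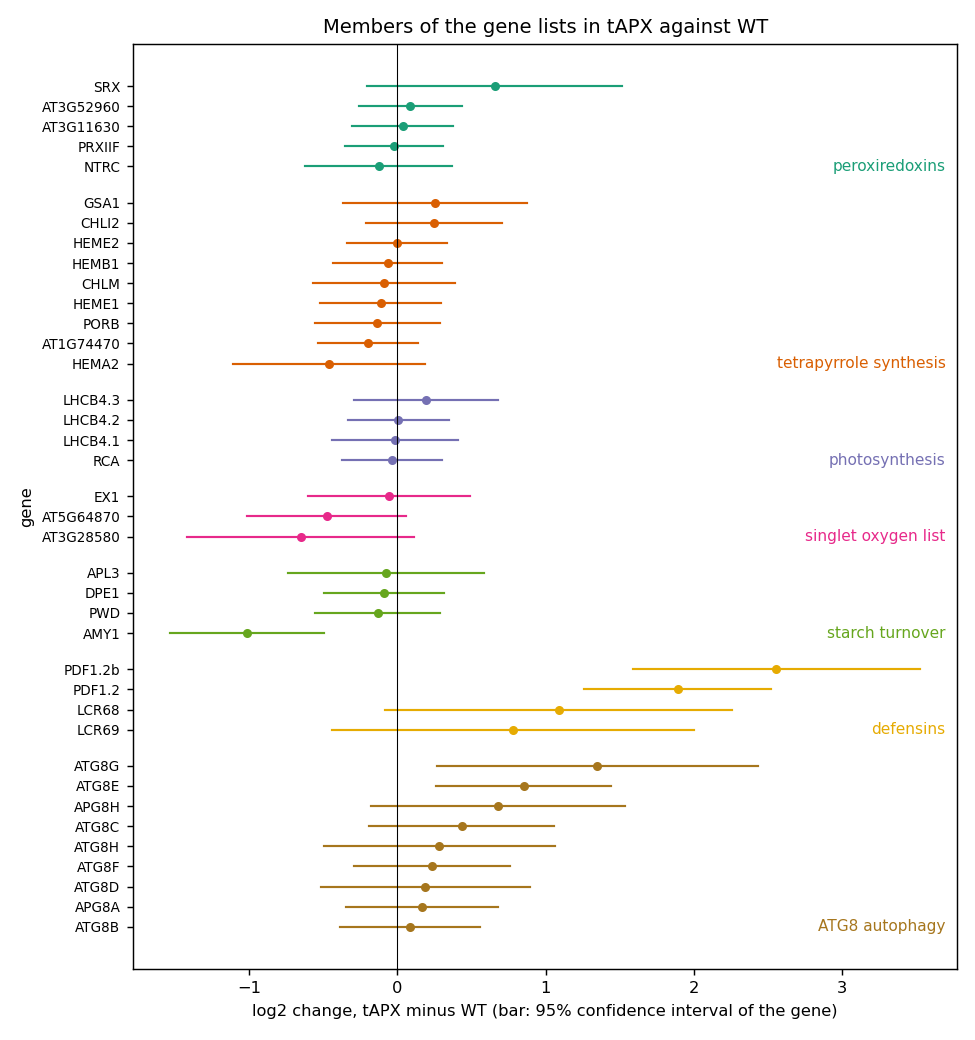
Log2 change, tAPX minus WT, of every measured gene in 7 lists (points), with the 95% confidence interval of each gene taken alone (bars). Photosynthesis and tetrapyrrole genes lie between -0.46 and 0.25, PDF1.2 and PDF1.2b are at 1.89 and 2.56, and the ATG8 genes run from 0.08 to 1.35; none of the genes drawn passed the test over all probe sets.

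Plant defensins had the largest median among the lists with at least 3 tested genes, 1.49, on 4 tested of 9 listed genes. PDF1.2, the antifungal defensin used as a readout of jasmonate and ethylene together, was 650.4 and 336 in WT and 1538 and 2065 in tAPX. PDF1.2b, its close relative, was 531 and 235 against 1664 and 2828. The groups did not overlap at either gene. Log2 changes were 1.89 ± 0.28 and 2.56 ± 0.43, with limma adjusted p-values of 0.314 and 0.471, so neither passed the test. The design of the PDF1.2b probe set allows it to pick up related transcripts as well, so the pair may not be independent readings.

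Of the other defensins, LCR68 was 1403 and 554 in WT and 1687 and 2131 in tAPX, and LCR69 was 775 and 361 against 678 and 1254. Both tAPX arrays lay above both WT arrays at LCR68 and the arrays overlapped at LCR69. On WT replicate 2 all 4 defensins were lower than on WT replicate 1. The same order held in flu and in flu tAPX for all 4 and in tAPX for none, while over all tested probe sets replicate 2 was the lower in 45.2% for WT and 50.2% for tAPX. The list's median was 0.93 without WT replicate 2 and 2.05 without WT replicate 1. PDF1.2 alone moved from 1.43 to 2.35 between those settings. Unadjusted p-values under 0.05 were reached by 2 of the 4, both higher in tAPX, against 1.76% of all tested probe sets.

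Jasmonate synthesis, one route to defensin expression, gave values near 0 at its 2 measured genes of 14. OPCL1, a ligase of jasmonate synthesis, was 742 and 785 in WT and 753 and 730.2 in tAPX, a log2 change of -0.04 ± 0.15. JMT, which methylates jasmonate, was 279 and 261 against 297 and 285, a log2 change of 0.10 ± 0.19. Neither passed the test. In flu these genes were higher than in the lines with FLU, at 5836 and 6376 for OPCL1 and 716 and 833 for JMT. Of the defensins, PDF1.2 was 904 and 762 in flu and PDF1.2b 908 and 753, above both WT arrays and below both tAPX arrays at each.

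ATG8 proteins coat the membrane that encloses cargo in autophagy, and all 9 measured genes of that list belong to this family. Both tAPX arrays lay above both WT arrays at 6 of the 9 and below at none, beside 16.7% above and 26.7% below over all tested probe sets. The median change was 0.28, and that of all tested probe sets was -0.06. ATG8E was 331 and 241 in WT and 510.2 and 535 in tAPX, a log2 change of 0.85 ± 0.27 with an unadjusted p of 0.0095 from limma. ATG8G was 19.0 and 47.3 against 86.1 and 125, a change of 1.35 ± 0.49 in a dim probe set. APG8H was 1599.7 and 1009 against 1966 and 2128, a change of 0.68 ± 0.38. At each of these 3 the groups did not overlap, and none of the 9 passed the test after adjustment. Replicate 2 was lower than replicate 1 at 6 of the 9 in WT, 8 in flu and 9 in flu tAPX, but at 2 in tAPX. Over all tested probe sets those shares were 45.2%, 46.7%, 42.8% and 50.2%. The median was 0.21 without WT replicate 2 and 0.47 without WT replicate 1. It was 0.19 without tAPX replicate 2. In the flu background the median was -0.20, and at none of the 9 did the arrays of flu and flu tAPX stand apart.

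Starch, clock and cold genes had few probe sets with a named gene. AMY1, an alpha-amylase, was 273 and 283 in WT and 136 and 123 in tAPX, so the groups did not overlap. The log2 change was -1.01 ± 0.23 (limma adjusted p = 0.98). It was the 1 of 4 tested starch genes with an unadjusted p under 0.05, beside 3.87% of all tested probe sets. AMY1 was 339 and 375 in flu, and flu tAPX had 339.9 and 495. The other starch genes lay near 0: PWD, a starch-phosphorylating dikinase, had a log2 change of -0.13, DPE1, the plastid glucanotransferase, -0.09, and APL3, a subunit of ADP-glucose pyrophosphorylase, -0.08. GI, the clock gene GIGANTEA, was 824 and 792 in WT and 584 and 678 in tAPX. Its log2 change of -0.35 ± 0.20 did not pass the test (limma adjusted p = 0.98). COR15B, a cold-induced chloroplast protein gene, was 1228 and 908 against 1327 and 1659, and its relative COR15A was 4009 and 3051 against 3467 and 4043, with overlap at COR15A only. COR47, a dehydrin, was 4789 and 5325 in WT and 4167 and 4689 in tAPX, where both tAPX arrays lay below both WT arrays.

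Markers of other rosette cell types were read at 2 genes. FMA, the guard cell factor FAMA, was 264 and 254 in WT and 259 and 262 in tAPX. TRY, a regulator of trichome spacing, was 321 and 218 against 334 and 293. The arrays overlapped at both. The remaining listed markers of phloem, xylem, epidermis and flowering were not analysed here. In rosette leaves taken whole, fewer cells of a type and less RNA per cell cannot be told apart.

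Larger families were described by their 2 genes with the highest and lowest statistics. Among 33 UDP-dependent glycosyltransferases the median change was 0.03, and it turned negative without WT replicate 1 and without tAPX replicate 2. UGT76E12 was 149 and 95.4 in WT and 32.1 and 4.40 in tAPX. Its log2 change was -2.11 ± 0.41 (limma adjusted p = 0.897). UGT76B1, which glycosylates a defence-related small acid, was 335 and 332 against 223 and 209. These were the lowest of the family, without overlap, and the only ones with an unadjusted p under 0.05. Over all tested probe sets 2.11% were lower in tAPX at that level. At the other end UGT73B1 was 57.9 and 109 against 115 and 154 and UGT84A3 was 332 and 304 against 374 and 408.

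Counts of genes whose arrays stood apart in the families that follow are to be read beside 16.7% of all tested probe sets with tAPX above WT and 26.7% with tAPX below. Glutathione transferases, which conjugate glutathione to reactive compounds, had a median of 0.18 over 11 genes, with 3 above, 1 below and none at an unadjusted p under 0.05. The highest was GSTU27 at 1676 and 1449 in WT and 1998 and 1863 in tAPX. GSTU25 was 9.10 and 55.3 in WT and 21.2 and 8.13 in tAPX, whereas it was 1819 and 944 in flu. Among 8 U-box ubiquitin ligases the median was -0.31, with both tAPX arrays below both WT arrays at 4 genes and above at 2. PUB19 was 68.8 and 135 against 167 and 186, and PUB23 was 118 and 117 against 81.6 and 70.6. Among 12 beta-glucosidases 5 lay below and 1 above. Among 16 genes with a CYP symbol, mostly cytochromes P450, 5 lay below and 1 above. These 16 include CYP59 and CYP71, which are cyclophilins, and CYP59 was among those below. CYP71B34 was the only gene of either group at an unadjusted p under 0.05 in limma, at 208 and 221 in WT and 323 and 316 in tAPX. In the other families of this paragraph PUB19 and the carboxypeptidase SCPL43 were also under 0.05. Over all tested probe sets 3.87% were. The WRKY factors, calmodulin-like proteins, tetraspanins, wall enzymes and carboxypeptidases had medians between -0.22 and -0.01, of which those of all but the WRKY factors changed sign under at least 1 alternative. No member of any family passed the test.

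Across all tested probe sets the lines were about as far apart as the WT arrays from each other, and further apart than the tAPX arrays from each other. Between the WT arrays 896 probe sets (5.99%) differed at least 2-fold, and between the tAPX arrays 345 (2.31%). Between a tAPX and a WT array the number ran from 595 to 911 (3.98% to 6.09%). Pearson's r over 14947 probe sets was 0.962 between the WT arrays, 0.981 between the tAPX arrays and 0.960 to 0.971 between the lines, as a description. Unadjusted p-values under 0.05 numbered 578 (3.87%), of which 263 were higher (1.76%) and 315 lower (2.11%) in tAPX, where 747 would be expected if no probe set differed. The count was 192 without tAPX replicate 2, 1095 without flu tAPX replicate 1 and 1083 without flu tAPX replicate 2. The next lowest adjusted p after TAPX was 0.314. The standard error of a probe set had a median of 0.25, and it fell from a median of 0.43 in the dimmest 3737 probe sets to 0.19 in the brightest 3737.

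**Figure D3:**
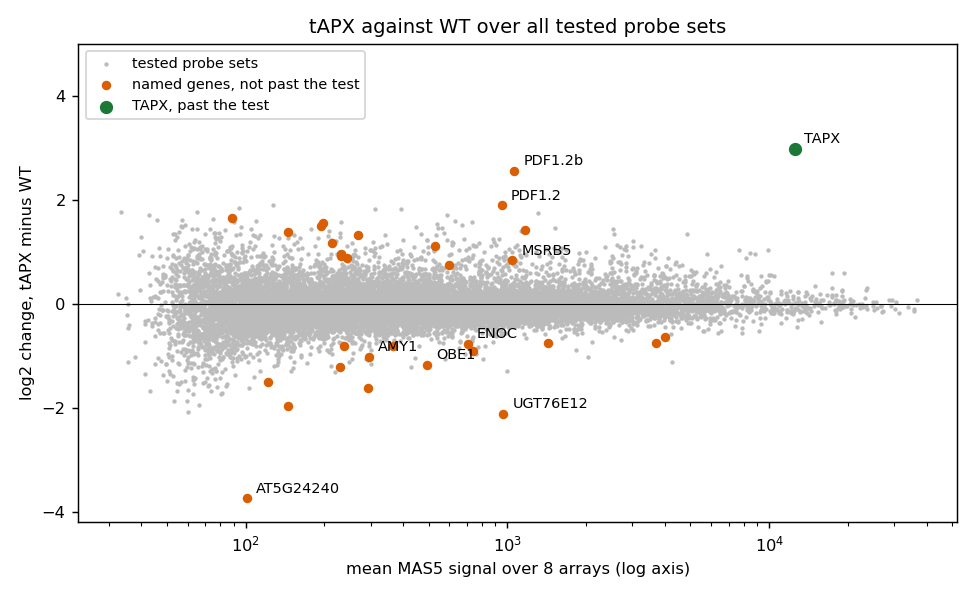
Log2 change, tAPX minus WT, against mean MAS5 signal over 8 arrays (log axis) for 14947 tested probe sets, with TAPX in green and the other 30 named genes in orange. TAPX stands alone at a bright signal, and the spread of the remaining probe sets widens toward dim signals, where AT5G24240 has the lowest value.

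The 15 genes with the highest statistics after TAPX were mostly dim in WT: 11 had a mean WT signal under 200. Their log2 changes ran from 0.74 to 2.56 and their adjusted p-values from 0.314 to 0.980. The order put PDF1.2 first, then AT1G69890 and PDF1.2b. AT1G69890 was 29.3 and 52.7 in WT and 126 and 142 in tAPX, while the lines with the mutation had 1889 and 1769 (flu) and 2777 and 2579 (flu tAPX). AT3G02190 was 58.6 and 100.3 in WT and 207 and 319 in tAPX. AT4G16840 was 51.5 and 119 against 216 and 302. None of the 3 overlapped between WT and tAPX, as was true of all 15, which ranking by the test statistic favours. On the WT and tAPX arrays the brightest besides the defensins and MSRB5 was AT2G41040, at 560.2 and 637 in WT and 1044 and 974 in tAPX.

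The rest of the 15 were AT3G50900, AT5G19030, AT1G54120, AT1G76470, AT4G15790, AT3G07580, AT1G76405 and AT4G21870. AT1G76470 was 4.24 and 12.1 in WT, 44.8 and 42.1 in tAPX and 518 and 366 in flu. AT3G50900 was 25.4 and 31.5 in WT, 76.2 and 83.0 in tAPX and 806 and 1208 in flu. At these genes tAPX stood above WT but remained well below flu. AT5G19030 was 182 and 151 in WT and 313 and 358 in tAPX, and AT4G15790 was 175 and 221 against 338 and 443. Those both had tAPX as the highest of the 4 lines.

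Of the 15 genes with the lowest statistics, 12 had a mean tAPX signal under 200. Log2 changes ran from -3.74 to -0.64, and all 15 had both tAPX arrays below both WT arrays. AT5G24240 had the largest change of any probe set, with 247 and 427 in WT and 10.8 and 8.32 in tAPX. Its log2 change of -3.74 ± 0.57 had an adjusted p of 0.314, and over 18 alternatives the change ran from -4.96 to -2.41 with adjusted p-values from 0.0519 to 0.9997. It was also low in flu, at 16.4 and 7.32, and the flu tAPX arrays read 33.8 and 59.8, so the WT arrays alone stood high.

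OBE1, a PHD-finger protein of meristem maintenance, was 299 and 349 in WT and 105 and 172 in tAPX, a log2 change of -1.17 ± 0.26. ENOC, a cytosolic enolase, was 1247 and 848 against 555 and 646, a change of -0.76 ± 0.22. AT1G09660 was 706 and 522 against 368 and 315. The groups stood apart at each, and none passed the test. In flu OBE1 was 619.8 and 725 and ENOC 678 and 625.

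Several of the lowest genes had very high levels in flu. AT5G51440 was 175 and 138 in WT, 85.9 and 85.6 in tAPX and 7373 and 6347 in flu. AT3G51450 was 549 and 527 in WT, 346 and 334 in tAPX and 7084 and 6866 in flu. AT2G38240 was 174 and 182, 114 and 85.5 and 2193 and 2135 in the same lines. In each, tAPX lay below WT by a step that was small beside the level in flu. UGT76E12, described above, was 1981 and 1256 in flu. AT5G66650, AT2G41380, AT5G10830 and AT4G24110 likewise were lowest in tAPX and highest in the lines with the flu mutation. AT3G28590 and AT3G44820 completed the 15, at 143 and 225 against 58.2 and 18.1 and 369 and 328 against 216 and 168. Comparisons of tAPX and of flu with WT share the WT arrays, so these levels are given side by side only.

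**Figure D4:**
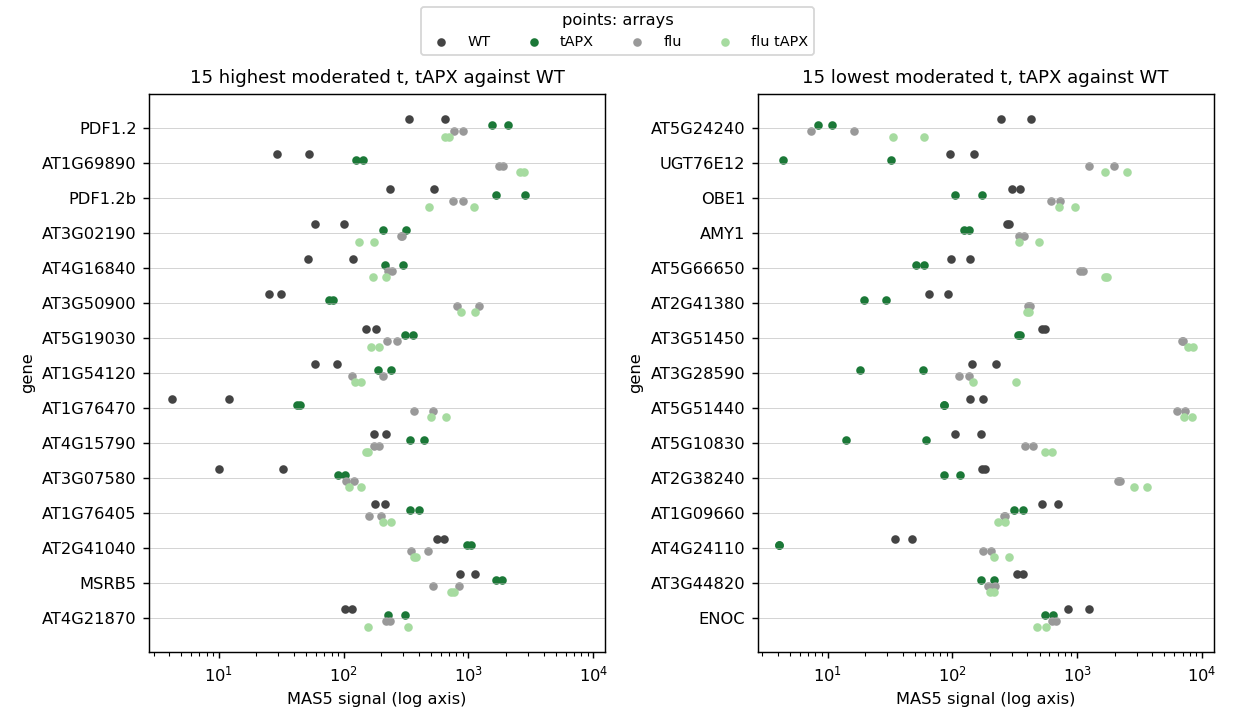
MAS5 signal on a log axis on each of the 8 arrays (points) for the 15 genes with the highest (left) and the 15 with the lowest (right) moderated t in tAPX against WT. At every gene the tAPX points do not overlap the WT points, and at genes such as AT5G51440 and AT3G51450 the flu and flu tAPX points lie far to the right of both.

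The flu background gave a second reading of the same transgene, on arrays that do not enter the means of tAPX and WT. All 8 arrays did set the filter and the variances of the fit, and with them the ranking of genes by test statistic. TAPX was again the only call in flu tAPX against flu, 1 of 14947 or 0.00669%, although 72 were called without flu tAPX replicate 1. Of the 15 genes highest in tAPX, 7 had a higher and 8 a lower mean log2 signal in flu tAPX than in flu, and the arrays stood apart upward at 2 and downward at 5. Over all tested probe sets both flu tAPX arrays lay above both flu arrays at 16.4% and below at 13.1%. The median change of the 15 there was -0.11. PDF1.2 had a change of -0.30 in the flu background against 1.89 with FLU, and PDF1.2b -0.17 against 2.56.

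Of the 15 genes lowest in tAPX, 12 had a higher and 3 a lower mean log2 signal in flu tAPX than in flu, with a median change of 0.30. The arrays stood apart upward at 7 and downward at 1, beside 16.4% and 13.1% of all tested probe sets. The 1 was ENOC, at 678 and 625 in flu against 559 and 475 in flu tAPX. AT5G24240 had a change of 1.16 there and AMY1 0.19. The difference between the transgene's change with and without the mutation was tested directly as an interaction, and 0 of 14947 probe sets (0.0%) passed in limma, with 1031 at an unadjusted p under 0.05. Without flu tAPX replicate 1 the interaction count was 185, and it was 311 when arrays were scaled on their poly-A controls.

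For the 30 named genes other than TAPX the interaction's adjusted p lay between 0.719 and 0.788. PDF1.2 had an interaction value of -2.20, PDF1.2b -2.73, AT3G02190 -2.42 and AT5G24240 4.90, which compare the log2 change in the flu background with that in plants with FLU. Without flu tAPX replicate 1 the interaction passed the test at 5 of the 31 named genes, and under poly-A scaling at 11. PDF1.2, PDF1.2b, AT3G02190 and AT5G24240 were among the 11 (limma adjusted p = 0.0466 for each). They passed under no other alternative that kept both arrays of every line and in which they were tested. Without flu tAPX replicate 1, which leaves 1 array in that line, their interaction values were -2.25, -3.31, -2.59 and 5.20. The genes were picked for their change in tAPX against WT, and the same arrays enter the interaction, so its size at them is not an independent reading.

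Probe sets with a larger difference were followed in the same way. Both tAPX arrays lay above both WT arrays with a change of at least 2-fold at 183 probe sets (1.22%) and below at 117 (0.783%). Of the 183, the flu background gave the same direction without overlap at 23 (12.6%) and the opposite direction without overlap at 19 (10.4%). Of the 117 it gave the same direction at 13 (11.1%) and the opposite at 33 (28.2%). Over all tested probe sets both flu tAPX arrays stood above both flu arrays at 16.4% and below at 13.1%. Pearson's r between the changes over all 14947 probe sets was -0.20, given as a description of probe sets that share 8 arrays and 1 model.

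A change of at least 2-fold in the same direction in both backgrounds, without overlap, was found at 11 probe sets, 8 higher and 3 lower with the transgene, and TAPX was the only one of them that passed the test. Of the other 10, 9 had no array with a signal over 250. The exception was AT2G25460, named here after its values were seen. It was 8.85 and 57.8 in WT and 66.3 and 76.5 in tAPX, then 356 and 353 in flu against 741 and 725 in flu tAPX. Its log2 changes were 1.03 and 1.01, with adjusted p-values of 0.980 and 0.879.

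**Figure D5:**
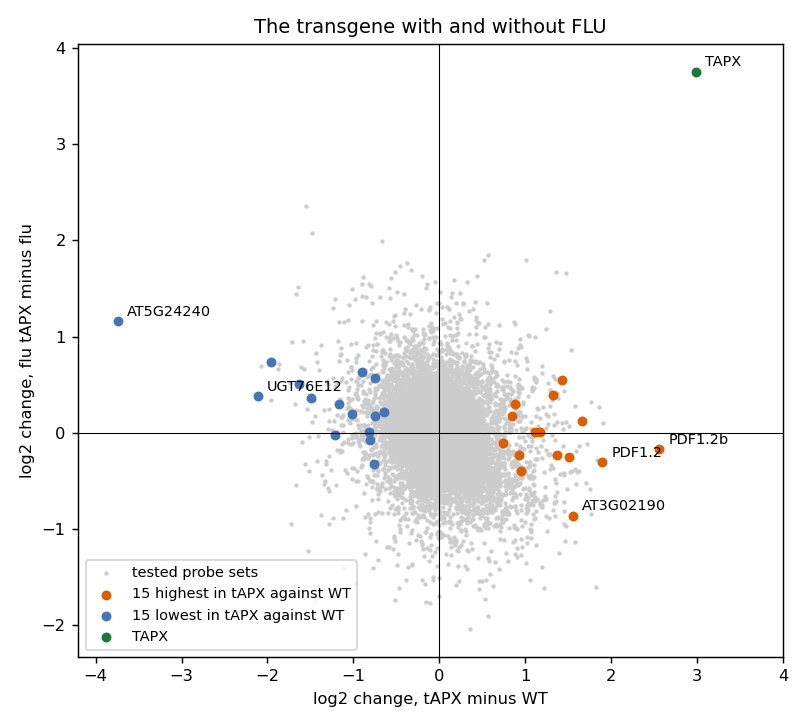
Log2 change, flu tAPX minus flu, against log2 change, tAPX minus WT, for 14947 tested probe sets, with TAPX in green and the 15 highest and 15 lowest named genes in orange and blue. TAPX is high on both axes at 2.99 and 3.75, while the other named genes spread along the horizontal axis and stay within -0.86 and 1.16 on the vertical one.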

How the data were processed

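Signals were taken as deposited: linear MAS5 intensity values that the authors made from each array, per the submitters' processing notes, which name no version. MAS5 scales each array by 1 factor, and the mean of the middle 96% of signals was nearly the same on all 8 arrays. No array was dropped, and the number of arrays (2 per line) limits the precision. Signals were turned into log2(signal + 16), and probe sets over the 40th percentile of an array on 2 or more arrays were tested. In limma 3.58.1 (R 4.3.3), 4 line means were fitted over 8 arrays with a variance trend on mean signal, giving 4 residual degrees of freedom and 5.94 prior ones (median). Lines came from the sample titles.

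Genes came from the platform annotation, with symbols updated to TAIR10.1: 13513 probe sets had 1 gene, 503 several and 8730 none, and only the first were named. Of 291 genes in 26 lists, 61 had such a probe set and 56 were tested. Besides TAPX and members of lists, the 15 highest and 15 lowest moderated t among named genes were described, with 1 probe set per gene, and from families of over 6 measured genes the 2 highest and 2 lowest. Members and lists were chosen with earlier results of these data known, so list counts carry no test. The script was tested on simulated data. Alternatives covered the pseudocount, filter, scaling, variance model, arrays in the fit, a replicate block and each array left out. FLU and sequences were not analysed here.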

Additional observations from a re-analysis of the deposited data

How the results depend on the processing

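TAPX kept its direction and its call under all 19 alternatives, with a log2 change between 2.85 and 3.18. With the replicate number as a block, 2 probe sets were called in tAPX against WT in place of 1, TAPX and UGT76E12 (log2 change -2.11, adjusted p = 0.0199 in limma), and the block changed no other call there. The labels do not tie equal numbers to a shared harvest, and the deviations of same-numbered WT and tAPX arrays from their line means had a correlation of -0.04 over 14947 probe sets (-0.08 to 0.35 over all pairs of lines). Leaving out single arrays kept the count in tAPX against WT at 1. The count of flu tAPX against flu lay between 1 and 72 over those settings, with 72 called without flu tAPX replicate 1 and 2 without flu tAPX replicate 2. For the interaction it lay between 0 and 185, with 185 called without flu tAPX replicate 1, and it was 311 when arrays were scaled on their poly-A controls, which moved the median of all tested interaction values to -0.59. The count of 0 interactions thus depends on that array and on the scaling, and the cause was not tested. The mean log2 signal of the poly-A controls was 9.02 and 8.71 in flu tAPX and 8.37 and 8.39 in flu. Of 564 values of the 30 named genes under the alternatives, 563 stayed on the same side of the threshold with the same sign, 1 gained a call and 0 turned sign. Unadjusted p-values under 0.05 numbered between 192, without tAPX replicate 2, and 1499, with only the WT and tAPX arrays in the fit. Precision was lowest at dim signal, where the median standard error was 0.43 over the dimmest 3737 probe sets.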
